A study of Mus musculus with 9 samples.

Results

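The matrix metalloproteinases Mmp12, Mmp3, Mmp11, Mmp14, Mmp9 and Mmp2 and their tissue inhibitors Timp1, Timp2 and Timp3 were followed through skeletal muscle of mice that carried or lacked dystrophin. The genes were taken by name from the array annotation, which gave 15 probe sets for the 9 genes, out of 12422 probe sets that are not controls and 8251 named genes. A filter on dim probe sets, a mean level above the 40th percentile, left 9 of the 15 probe sets and 8 of the 9 genes. The mean was taken over all arrays, so a gene can pass through a few high arrays. Mmp9, at percentile 42.7, and Mmp12, at 52.1 and 48.1 on its 2 probe sets, lay nearest the cut. Both were high in few arrays, through which they may have passed, so their tests are not independent of the filter. Mmp2 did not pass it.

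Total RNA of gastrocnemius, a calf muscle, was measured in 9 individual mice of 6 genotypes on Affymetrix U74Av2 oligonucleotide arrays, 1 array per mouse. Wild-type was represented by a female and a male mouse of 7 weeks on a C57Bl/DBA2/129OLA-Ev background, and all other mice were male. The 2 mdx mice, with a mutation in the mouse Dmd gene, were 15 weeks (mdx 1) and 13 weeks (mdx 2) old. The 2 hDMD mdx mice, which carried the full-length human DMD gene besides the mdx mutation, were 24 weeks (hDMD mdx 1) and 10 weeks (hDMD mdx 2) old. Single mice represented hDMD, with the human gene on an intact mouse background (11 weeks), mdx utrn-/-, which lacked both dystrophin and the related protein utrophin (5 weeks), and hDMD mdx utrn-/- (9 weeks). The labels name a strain only for the wild-type mice, so strain and genotype cannot be told apart. Both wild-type mice were also younger than every mdx and hDMD mdx mouse, so age and genotype cannot be told apart there. The single mdx utrn-/- mouse was the youngest of all 9, so for its values age and genotype cannot be told apart either. The human gene counts as dystrophin, which makes 3 arrays lacking dystrophin (mdx 1, mdx 2, mdx utrn-/-) and 6 carrying it. Replicate numbers follow deposit order and pair no mice.

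Matrix metalloproteinases are zinc-dependent enzymes that cut collagens, laminins, elastin and other proteins around cells. Most are secreted as inactive proenzymes, are switched on by other proteases, and are held in check by the Timp proteins, which block the active site. In dystrophin-deficient muscle, fibres break down and regenerate in repeated rounds with infiltrating macrophages and growing connective tissue, a setting in which matrix turnover is commonly studied.

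Sequence upstream of the start is shown for Mmp12, Mmp3 and Timp1, because these 3 genes were high in both mdx arrays. Mmp3 was nevertheless higher in wild-type 2 than in mdx 1. Mmp14, also highest in the mdx arrays, is not shown. The RefSeq windows, on mouse build GRCm38.p6, are the 250 bases before the annotated start, all on the plus strand: chr9:7347124-7347373 for the downstream of 2 listed starts of Mmp12, chr9:7445572-7445821 for Mmp3 and chrX:20869916-20870165 for Timp1. Capitals mark the AP-1 letters TGANTCA, which read alike on both strands, and the Ets letters AGGAAG, searched on both strands. No stretch was counted for both.
Mmp12: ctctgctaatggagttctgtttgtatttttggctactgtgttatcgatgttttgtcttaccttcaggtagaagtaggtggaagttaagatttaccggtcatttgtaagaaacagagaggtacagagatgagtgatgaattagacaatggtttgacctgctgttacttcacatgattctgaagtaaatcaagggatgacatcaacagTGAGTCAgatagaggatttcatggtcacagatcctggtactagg
Mmp3: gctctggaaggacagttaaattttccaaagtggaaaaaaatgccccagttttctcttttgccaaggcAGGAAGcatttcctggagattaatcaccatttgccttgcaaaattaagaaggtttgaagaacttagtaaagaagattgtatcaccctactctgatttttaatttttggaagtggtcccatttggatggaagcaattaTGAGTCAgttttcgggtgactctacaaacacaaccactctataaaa
Timp1: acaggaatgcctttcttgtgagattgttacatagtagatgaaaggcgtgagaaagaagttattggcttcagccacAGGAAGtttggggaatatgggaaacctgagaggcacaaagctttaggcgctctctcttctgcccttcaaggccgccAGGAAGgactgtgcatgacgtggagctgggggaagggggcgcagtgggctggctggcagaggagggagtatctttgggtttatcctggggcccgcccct
In the Mmp12 and Mmp3 windows the AP-1 letters begin 44 and 46 bases before the start. The Ets letters begin 183 bases before the start of Mmp3 and 175 and 99 bases before that of Timp1. Of 8 windows for the 7 genes with an entry (all but Mmp2 and Mmp9), 2 held the AP-1 letters, the pair printed above. The window of the upstream start of Mmp12, which is not printed, held no AP-1 letters. The Ets letters were also in the windows of Mmp14, Timp3 and the upstream start of Mmp12. Across 32851 mouse windows of the same length, 6.75% held the AP-1 letters and 29.5% the Ets letters. These matches describe letters only, and binding was not measured.

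Levels are log2 of the quantile normalised intensity plus 16, so that a probe set without signal lies at a floor of 4 and differences of dim genes are understated. Spike-in controls, added in fixed amounts, divided the arrays into 3 bright (wild-type 1, hDMD mdx 1, mdx 2) and 6 dim ones, with a 6.18-fold ratio between the medians. Each genotype with 2 mice had 1 bright and 1 dim array, so differences are also given within bright and within dim arrays, where mdx, wild-type and hDMD mdx are each a single mouse. All 11 muscle fibre markers on the array were detected in every array, with a summed normalised intensity between 22903 and 25452. The probe sets of the altered genes did not separate the genotypes. Dmd lay between 4 and 4.95 over all arrays, and Utrn probe set 92508_s_at lay between 4.15 and 6.16 in the mice with utrophin. The mdx utrn-/- mouse (5.64) and its hDMD counterpart (5.28) lay inside that range. Which exons these probe sets cover is not given in the sources used here, so they do not check the labels. In whole muscle, more cells of one type and more RNA per cell cannot be told apart.

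Mmp12 encodes macrophage elastase, a secreted protease that degrades elastin. It was highest in the mdx muscles. Probe set 95339_r_at read 6.54 in mdx 1 and 6.34 in mdx 2, against 4.70 in mdx utrn-/-. Among the arrays with dystrophin, wild-type 2 read 5.01, hDMD 4.33 and hDMD mdx 2 4.30, while wild-type 1, hDMD mdx 1 and hDMD mdx utrn-/- lay at the floor of 4. Both mdx arrays stood apart from all others, and the mdx utrn-/- array lay below wild-type 2. In deposited units, mdx 1 read 19.4 on a dim array and mdx 2 read 109 on a bright one. The other Mmp12 probe set, 95338_s_at, read 6.28 in mdx 1 and 5.16 in mdx 2, with wild-type 2 at 5.24 and hDMD mdx utrn-/- at 4.83. There wild-type 2 exceeded mdx 2, and mdx utrn-/-, at 4.05, lay near the floor. The 2 probe sets had a correlation of 0.82 over the 9 arrays.

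Mmp3, stromelysin, cuts proteoglycans, fibronectin and laminin and activates other proenzymes of the family. Probe set 98833_at read 5.44 in mdx 1, 6.41 in mdx 2 and 4.80 in mdx utrn-/-. The arrays with dystrophin read 5.58 in wild-type 2, 4.69 in hDMD mdx 1, 4.60 in wild-type 1, 4.51 in hDMD mdx utrn-/-, 4.30 in hDMD and 4.22 in hDMD mdx 2. Apart from wild-type 2, every array with dystrophin lay below the 3 arrays without it.

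Mmp11 encodes a stromelysin that is activated inside the cell by furin. Probe set 100016_at read 7.56 in mdx 1, 7.31 in mdx 2 and 7.57 in mdx utrn-/-. The arrays with dystrophin spread widely, at 7.49 in wild-type 1, 6.94 in hDMD mdx 2, 6.69 in hDMD, 6.55 in hDMD mdx 1, 5.79 in wild-type 2 and 5.47 in hDMD mdx utrn-/-. Only wild-type 1 among them reached the level of the arrays lacking dystrophin.

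Mmp14 is a membrane-anchored protease that cuts fibrillar collagen and activates pro-Mmp2 at the cell surface. Probe set 160118_at read 7.42 in mdx 1, 7.24 in mdx 2 and 7.12 in mdx utrn-/-. The wild-type arrays followed at 7.03 and 6.93, and hDMD mdx utrn-/- at 6.63, hDMD mdx 2 at 6.48, hDMD mdx 1 at 6.14 and hDMD at 5.86 were lower. The 4 arrays carrying the human gene thus lay below both wild-type arrays, and the 3 arrays lacking dystrophin lay above them. The gap between wild-type 2 and mdx utrn-/- was small beside the spread of the other arrays with dystrophin.

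Mmp9, a gelatinase that neutrophils store in granules, had another pattern. Probe set 99957_at read 6.11 in mdx utrn-/-, 5.02 and 4.54 in wild-type 1 and 2, 4.53 in hDMD mdx 2, 4.33 in hDMD mdx utrn-/- and 4.13 in hDMD. Both mdx arrays and hDMD mdx 1 lay at the floor. The double mutant therefore stood alone at the top, and the mdx mice at the bottom. The other Mmp9 probe set, 162369_f_at, ranged from 4 to 4.65 and did not pass the filter, as did neither probe set of Mmp2, the gelatinase that Mmp14 activates. Mmp2 lay between 4 and 4.49 on 95663_at and between 4 and 4.18 on 161509_at, and 7 of its 9 deposited values on the latter were at or below 0. At this signal no difference in Mmp2 was detectable.

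**Figure D1:**
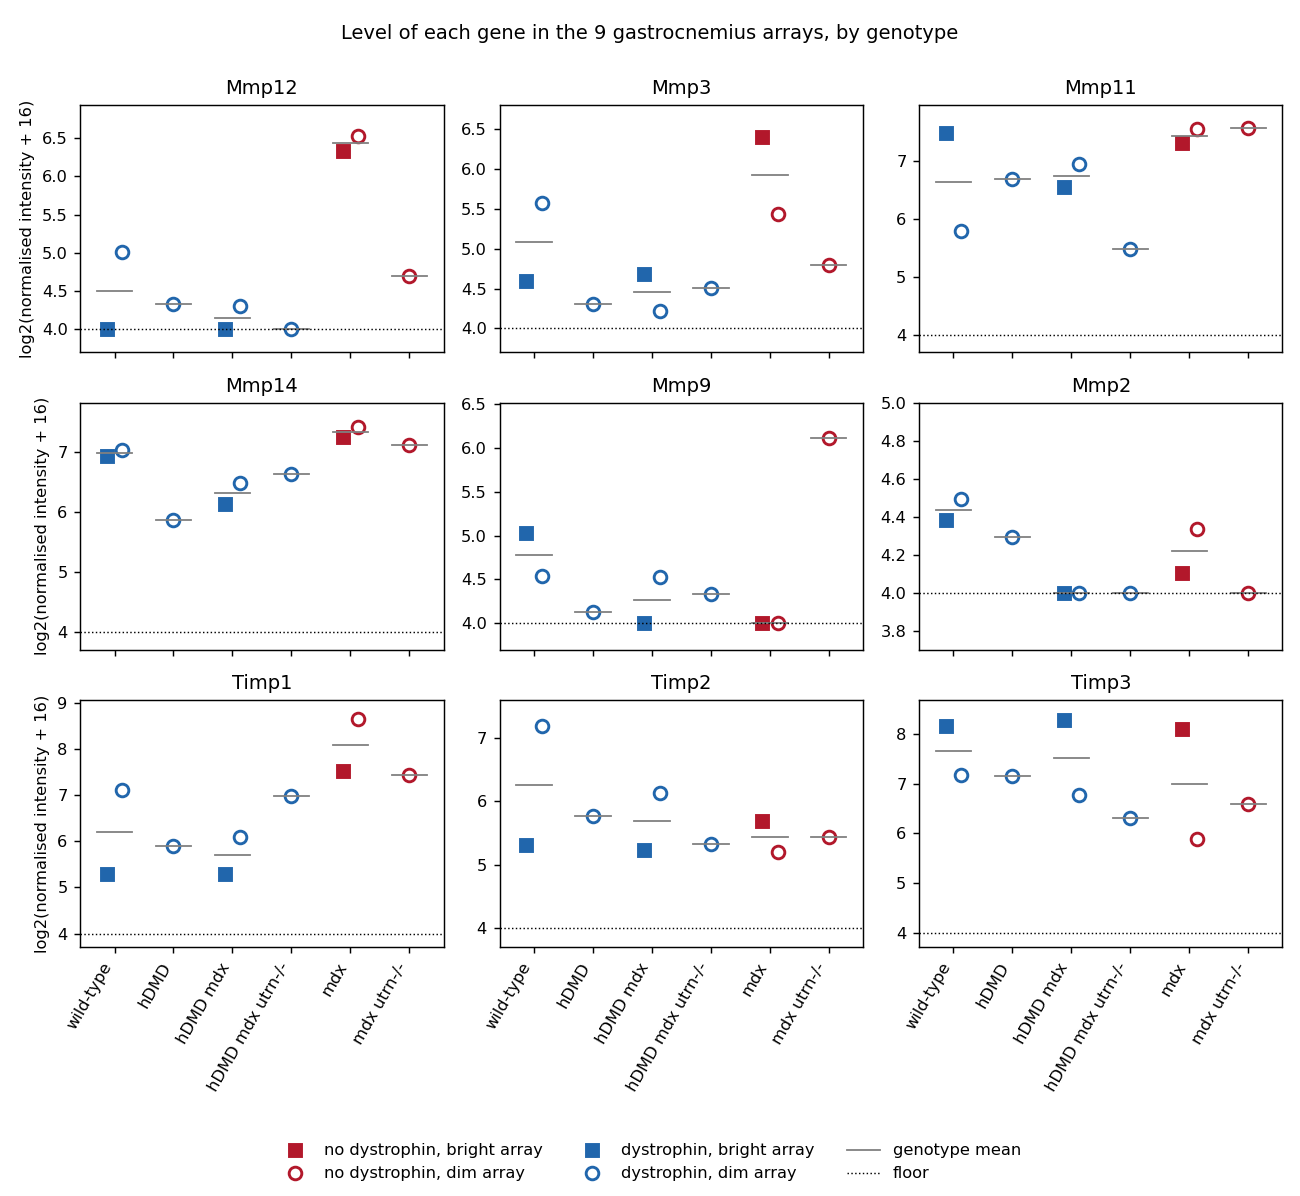
Level of each of the 9 genes, as log2(normalised intensity + 16), on its brightest probe set in 9 mice of 6 genotypes; red marks arrays lacking dystrophin, blue those with it, filled squares bright arrays and open circles dim ones, grey lines genotype means, and the dotted line the floor of 4. Mmp12 reached 6.54 and 6.34 in the mdx mice only, Mmp9 reached 6.11 in the mdx utrn-/- mouse, and Timp1 was at 7.43 or above in every array lacking dystrophin.

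Timp1 is a secreted inhibitor of most family members and also acts as a growth factor for several cell types. Probe set 101464_at read 8.66 in mdx 1, 7.53 in mdx 2 and 7.43 in mdx utrn-/-. With dystrophin it read 7.11 in wild-type 2, 6.99 in hDMD mdx utrn-/-, 6.10 in hDMD mdx 2, 5.89 in hDMD, 5.30 in hDMD mdx 1 and 5.29 in wild-type 1. The classes did not overlap, although wild-type 2 came close to mdx utrn-/-. In deposited units the bright arrays read 279 in mdx 2, 102 in hDMD mdx 1 and 33.6 in wild-type 1. The median deposited intensity of these arrays was 19.4, 45.6 and 14.9, so their deposited values are not on one scale. A further Timp1 probe set, 162107_r_at, stayed between 4 and 4.54 and did not pass the filter.

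Timp2 inhibits the proteases and, bound to Mmp14, helps to activate pro-Mmp2. Probe set 93507_at read 7.19 in wild-type 2 and 6.14 in hDMD mdx 2, and the other 7 arrays lay between 5.20 (mdx 1) and 5.76 (hDMD). The 3 arrays lacking dystrophin, at 5.20, 5.68 and 5.44, lay within the range of those carrying it. Its 2 other probe sets, 160116_at (4 to 4.74) and 161515_i_at (4 to 4.21), did not pass the filter.

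Timp3 binds to the matrix itself and also inhibits the sheddase Adam17. Probe set 160519_at was higher in every bright array than in any dim one. The 3 bright arrays read 8.29 in hDMD mdx 1, 8.17 in wild-type 1 and 8.10 in mdx 2, and the 6 dim ones ranged from 5.89 in mdx 1 to 7.17 in wild-type 2. Within the dim arrays, mdx 1 was the lowest and hDMD mdx utrn-/- the next, at 6.31. Above them lay mdx utrn-/- at 6.58 and hDMD mdx 2 at 6.77, with hDMD at 7.15 just below wild-type 2.

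Muscle lacking dystrophin was compared with muscle carrying it over all 9 arrays. Timp1 was higher by 1.76 ± 0.46 (SE, 3 against 6 arrays), with an adjusted p of 0.383 in limma. Mmp12 was higher by 1.58 ± 0.39 on 95339_r_at, with an adjusted p of 0.383, and by 0.73 ± 0.44 on 95338_s_at. Mmp11, Mmp3 and Mmp14 were higher by 0.99 ± 0.39, 0.90 ± 0.37 and 0.75 ± 0.28, with adjusted p of 0.832, 0.862 and 0.802. In a fit with a term for carrying the human gene, Mmp14 and Mmp3 differed by 0.28 ± 0.30 and 0.46 ± 0.46. Mmp9 differed by 0.28 ± 0.43, Timp2 by -0.39 ± 0.40 and Timp3 by -0.45 ± 0.52, each within its error. Of the 3 inhibitors, Timp1 thus had a higher mean without dystrophin, and Timp2 and Timp3 a lower one.

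No member passed the threshold of 0.05 in this comparison, whereas 9 of 7453 probe sets did (0.121%), all higher without dystrophin. Before adjustment 416 probe sets and 5 of the 8 member genes had p under 0.05 in limma. The median difference of the 8 genes was 0.82, with 6 higher, beside -0.01 over all probe sets tested. Arrays of the classes did not overlap for 2 of the 8 genes, Timp1 and Mmp14, beside 1.52% of all probe sets tested that were higher without overlap. Without wild-type 2, a setting chosen after its values were seen, Mmp12 (on 95339_r_at only) and Mmp3 also ceased to overlap. That made 4 of 8 genes beside 3.3% of all probe sets. Within bright arrays the difference was 2.24 for Timp1 and 2.34 for Mmp12, and within dim arrays it was 1.52 and 1.21. Mmp3 differed by 1.76 within bright and 0.46 within dim arrays, and Mmp11 by 0.29 and 1.34, while Mmp14 was alike in both at 0.71 and 0.77. Leaving out the mdx utrn-/- mouse gave Mmp12 a difference of 2.16 ± 0.31 and the lowest adjusted p of any member under any alternative, 0.0772 in limma.

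**Figure D2:**
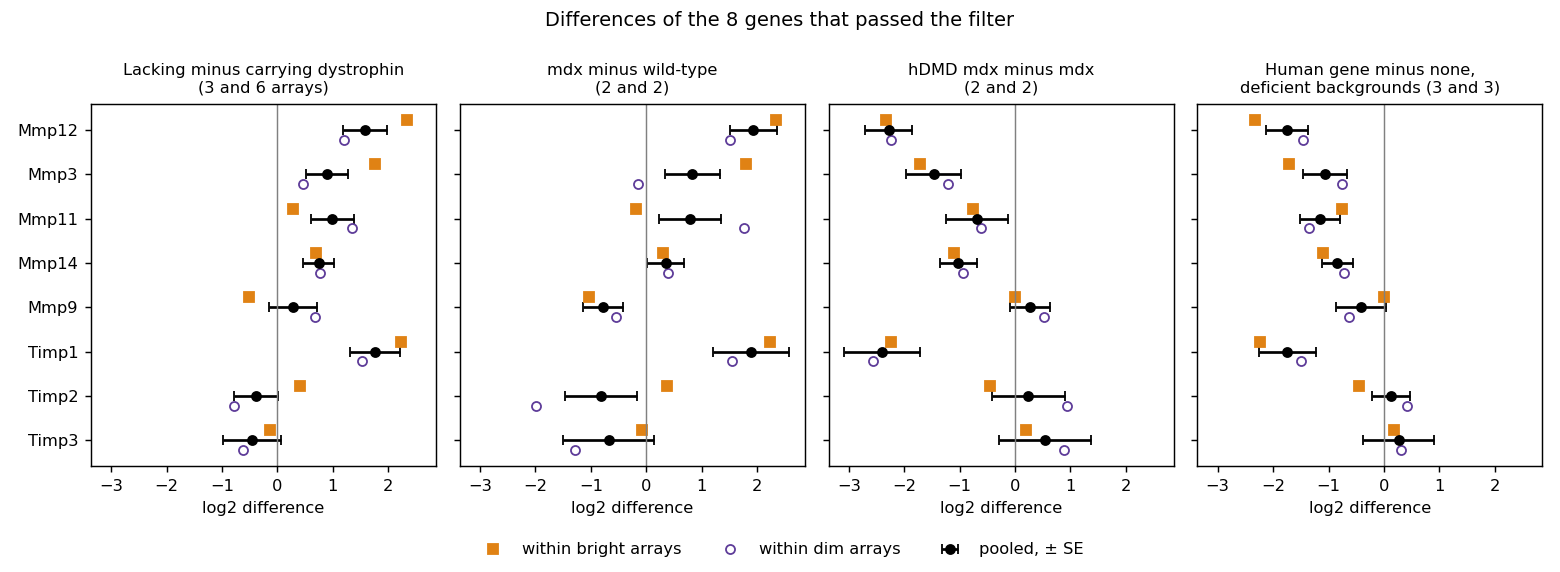
Differences in log2 level of the 8 genes that passed the filter, in 4 comparisons; black points with bars are the pooled difference ± SE, orange squares the difference within bright arrays and open circles that within dim arrays. Mmp12 and Timp1 were 1.93 and 1.89 above wild-type in mdx and 2.28 and 2.40 lower in hDMD mdx than in mdx. Both brightness levels lay on the same side of 0, which follows from arrays that did not overlap. For Mmp9 both mdx arrays were at the floor, so those points are against the floor.

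Loss of mouse dystrophin was addressed by setting the 2 mdx mice against the 2 wild-type mice. Age and strain cannot be told apart from genotype there. Mmp12 was higher by 1.93 ± 0.42 (SE) on 95339_r_at and by 1.10 ± 0.55 on 95338_s_at. Wild-type 1 lay at the floor on 95339_r_at, and there the difference was 0.91 with a pseudocount of 64 and 4.10 with one of 1. Timp1 was higher by 1.89 ± 0.69, and by 0.98 without wild-type 1 and 2.81 without wild-type 2. Mmp3 (0.83 ± 0.50), Mmp11 (0.79 ± 0.56) and Mmp14 (0.35 ± 0.33) were higher in mean, and Timp2 (-0.81 ± 0.65) and Timp3 (-0.68 ± 0.83) lower. Mmp9 lay at the floor in both mdx arrays, against 5.02 and 4.54 in wild-type. All adjusted p were 1 in limma, and 0 of 7453 probe sets (0%) passed, with 130 under 0.05 before adjustment. Mmp12 (on 95339_r_at only), Mmp14 and Timp1 were higher without overlap, 3 of 8 genes, beside 11.2% of all probe sets. On 95338_s_at wild-type 2, at 5.24, lay above mdx 2, at 5.16. Mmp9 was lower without overlap, by -0.78 ± 0.37, with mdx at the floor. In either direction 4 of 8 genes did not overlap, beside 1636 of 7453 probe sets. Mmp12 differed by 2.34 within bright and 1.52 within dim arrays, and Timp1 by 2.24 and 1.54. Mmp3 differed by 1.81 within bright but -0.14 within dim arrays, and Mmp11 by -0.18 and 1.77, so for these 2 genes the direction was that of 1 mouse pair. Timp2 likewise differed by 0.37 within bright and -1.99 within dim arrays.

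The effect of the human gene on the mdx background was read from hDMD mdx against mdx, 2 mice each. Here 5 of the 8 genes were lower with the human gene, and for those 5 the arrays did not overlap. Timp1 differed by -2.40 ± 0.69 (SE) and Mmp12 by -2.28 ± 0.42 on 95339_r_at and -1.53 ± 0.55 on 95338_s_at. Mmp3 differed by -1.47 ± 0.50, Mmp14 by -1.02 ± 0.33 and Mmp11 by -0.69 ± 0.56. Without overlap both brightness levels must have the same sign, so for these 5 genes only the sizes within them add information. These were, for example, -2.24 and -2.56 for Timp1 and -1.10 and -0.94 for Mmp14. Timp2 (0.24 ± 0.65) and Timp3 (0.54 ± 0.83) differed by less than their errors, and Mmp9 was at the floor in 3 of the 4 arrays. Adjusted p in limma rounded to 1, and 0 of 7453 probe sets (0%) passed, with 215 under 0.05 before adjustment. Lower levels without overlap were seen in 13.1% of all probe sets tested, beside the 5 of 8 genes. The mdx arrays enter this comparison and the ones before it, so the comparisons are not independent.

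Carriers of the human gene were also set against non-carriers over both deficient backgrounds, 3 arrays each, with utrophin genotype as an additive term. Mmp12 differed by -1.76 ± 0.38 (SE; adjusted p 0.385 in limma) on 95339_r_at and by -0.76 ± 0.53 on 95338_s_at. Timp1 differed by -1.75 ± 0.51 (adjusted p 0.646), Mmp11 by -1.16 ± 0.36 (0.691), Mmp3 by -1.07 ± 0.40 (0.821) and Mmp14 by -0.84 ± 0.28 (0.725 as adjusted p). These 5 genes did not overlap between carriers and non-carriers, Mmp12 on 95339_r_at only, beside 5.3% of all probe sets that were lower without overlap. On 95338_s_at the carrier hDMD mdx utrn-/- read 4.83, above the non-carrier mdx utrn-/- at 4.05. Mmp9 differed by -0.42 ± 0.45, Timp2 by 0.13 ± 0.34 and Timp3 by 0.27 ± 0.64. No probe set passed (0%), with 409 of 7453 under 0.05 before adjustment, 5 member genes among them.

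The 2 deficient backgrounds gave different sizes. In the single utrophin-deficient pair, hDMD mdx utrn-/- differed from mdx utrn-/- by -2.09 for Mmp11, -1.78 for Mmp9, -0.70 for Mmp12 on 95339_r_at, -0.49 for Mmp14, -0.44 for Timp1 and -0.28 for Mmp3. The Mmp12 probe set 95338_s_at went the other way, by 0.78. Mmp9 gave 0.26 on mdx, where 3 of the 4 arrays lay at the floor, against -1.78 on mdx utrn-/-, with 1 mouse on each side, a difference of 2.04 ± 0.63 with an unadjusted p of 0.0145 in limma and an adjusted p of 1. Timp1 differed between backgrounds by -1.95 ± 1.19 and Mmp12 by -1.58 ± 0.73 on 95339_r_at and -2.31 ± 0.96 on 95338_s_at (unadjusted p 0.0476 for the latter), with the same adjusted p in limma. In this test 0 of 7453 probe sets (0%) passed, with 286 under 0.05 before adjustment, and the single mice are assumed to vary like the other genotypes.

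Markers of infiltrating cells were high in the same arrays as several members. Of 24 macrophage markers 22 were on the array, and all 17 that passed the filter were higher in muscle lacking dystrophin, with a median of 1.09, although none passed the test. A marker can pass the filter through the arrays where it is high, as Msr1 may have with 3 arrays at 0. This count is therefore not independent of the filter. The summed normalised intensity of the 22 ran from 1358.5 to 2715 in the 3 arrays lacking dystrophin and from 430.1 to 1965 in the 6 others. The highest arrays were mdx 1, wild-type 2 and mdx 2, and the next, mdx utrn-/-, lay above the remaining 5, which were at 594 or below. Mmp12, Mmp3, Mmp14 and Timp1 had their 4 highest levels in those same 4 arrays, on 95339_r_at for Mmp12. This ranking was not particular to macrophage markers. The same 4 arrays also held the highest fibroblast sums, 3414 to 5325 against 3202 or below elsewhere. They held the highest cathepsin sums too, 2399 to 3071 against 2010 or below. Among the macrophage markers Aif1 was at 0 in 6 arrays, Itgam in 5 and Adgre1 in 3. The part of macrophage RNA in these members' results was not tested.

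The array with the highest Mmp9 also had the highest neutrophil markers. The 11 of 11 markers on the array summed to 2698 in mdx utrn-/- and to between 79.6 and 378 in the other arrays, and S100a8 and S100a9 were each at 0 in 2 arrays. Of the 3 arrays at the Mmp9 floor, hDMD mdx 1 and mdx 2 had the lowest sums, 79.6 and 107, and mdx 1 was at 268. Wild-type 1, next in Mmp9 at 5.02, was at 256, below mdx 1, and the second highest sum, 378, was that of hDMD mdx utrn-/-, with Mmp9 at 4.33. Ltf, a neutrophil granule protein, was among the 3 genes whose levels were most like those of Mmp9. As Mmp9 was at 6.11 in mdx utrn-/- and at 5.02 or below elsewhere, 1 array weighs heavily in that likeness. The part of neutrophil RNA in the Mmp9 result was not tested.

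Fibroblast markers summed to 3414 to 4015 without dystrophin and to 1959.6 to 5325 with it. Of these markers 12 of 14 were higher without dystrophin, with S100a4 higher by 1.88 ± 0.29 (adjusted p 0.0401 in limma). In mdx against wild-type only 8 of 14 were higher, at a median of 0.016. In hDMD mdx against mdx 2 of 14 were higher, at a median of -0.52. The 11 regenerating muscle markers were all higher without dystrophin, at a median of 1.03, and did not overlap in sum: 2784 to 3884 against 1045 to 2407. Of these Myl4 and Myh3 passed, at 2.44 ± 0.26 and 2.24 ± 0.30 (adjusted p 0.00344 and 0.0203 in limma). Adipocyte markers summed to 6165 in wild-type 2, against 897 to 3125 elsewhere, and that array also had the highest Timp2. Wild-type 2 had the highest fibroblast sum as well, 5325. The array second in Timp2, hDMD mdx 2 at 6.14, had an adipocyte sum of 1529.5. The part of these cells in the members' results was not tested. Endothelial and tendon markers did not separate the classes, with sums of 541 to 979 against 438 to 822 and of 129 to 171 against 72.0 to 525.

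**Figure D3:**
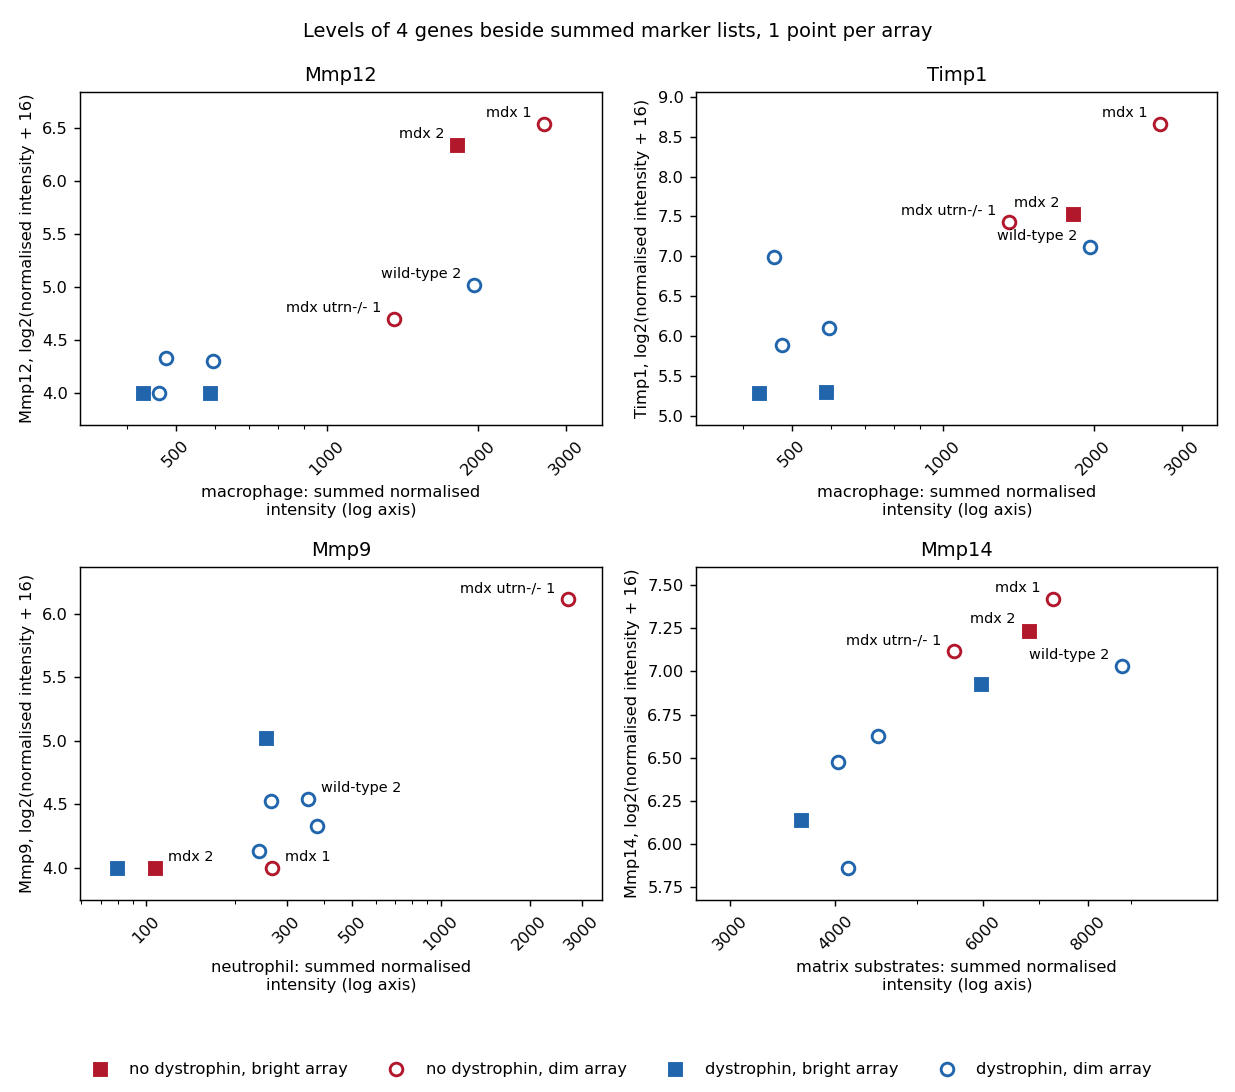
Level of Mmp12, Timp1, Mmp9 and Mmp14, as log2(normalised intensity + 16), against the summed normalised intensity of a marker list on a log axis, 1 point per array; red marks arrays lacking dystrophin, blue those with it, filled squares bright and open circles dim arrays. The mdx arrays and wild-type 2 held the 3 highest macrophage sums, and mdx utrn-/- stood alone in neutrophil sum at 2698 and in Mmp9 at 6.11.

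Of the other matrix metalloproteinases and Timp4, 7 of 18 listed genes were on the array and 1 passed the filter, the membrane-anchored Mmp17, which differed by -0.08 ± 0.22 between the classes. Mmp8 and Mmp24 were at the floor in all 9 arrays and Mmp16 in 8. Mmp13, the main rodent interstitial collagenase, reached at most 4.62 and Mmp10 at most 4.44.

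Activators and regulators of proteolysis at the cell surface did not share the members' direction. Of 15 genes that passed the filter, 5 were higher without dystrophin, the median was -0.09 and none passed the test. The largest differences were those of the metalloproteinase Adam15 (0.47 ± 0.30) and the proprotein convertases Pcsk5 (-0.31 ± 0.31) and Pcsk6 (-0.29 ± 0.43). Cathepsins, the lysosomal proteases, were higher in 10 of 11 genes, with a median of 0.39 and none past the test. Ctss, also a macrophage marker, differed by 2.22 ± 0.58 and Ctsl by 0.91 ± 0.33, while the aspartic protease Ctse differed by -0.72 ± 0.26. With the human gene on deficient backgrounds 10 of 11 cathepsins were lower, at a median of -0.56.

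Matrix substrates of the proteases were higher without dystrophin in 26 of 31 genes, with a median of 0.34 and none past the test. In mdx against wild-type only 17 of 31 were higher, at a median of 0.075. In hDMD mdx against mdx 4 of 31 were higher, at a median of -0.78. The list shares Col1a1, Col1a2, Col3a1, Dcn and Lum with the fibroblast markers. The largest differences were those of the collagens Col8a1 (1.15 ± 0.28) and Col5a2 (0.84 ± 0.43) and of elastin, Eln (0.87 ± 0.25), which Mmp12 cleaves. With the human gene on deficient backgrounds 26 of 31 were lower, at a median of -0.63. Their summed intensity was highest in wild-type 2, at 8781, followed by mdx 1 at 7271 and mdx 2 at 6798. Cytokines, receptors and transcription factors that are known to regulate the protease genes were higher in 9 of 18 genes, at a median of 0.02, none past the test. Egr1 and Junb, immediate early transcription factors, differed by 0.91 ± 0.38 and 0.88 ± 0.34, and Tnfrsf1a, a receptor for tumour necrosis factor, by 0.75 ± 0.47. Over all probe sets tested the class median was -0.01.

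Levels of the members were also set against each other over the 9 arrays, which share the brightness split, so each correlation is followed by that after removal of the bright and dim means. Mmp12 had a correlation of 0.84 with Mmp3 (0.88 within brightness) and 0.82 with Timp1 (0.91), and Mmp3 had 0.62 with Timp1 (0.87). Mmp14 had 0.75 with Timp1 (0.84). Mmp9 had -0.28 with Mmp12 (-0.29) and Timp3 had -0.65 with Timp1 (-0.64). Within brightness, the pairs among Mmp12, Mmp3 and Timp1 had the highest correlations of all member pairs.

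Among all named genes that passed the filter, those with the most similar levels over the 9 arrays were taken for each member. For Mmp12 they were Armcx2 (0.95), the interleukin receptor chain Il3ra (0.92) and the macrophage marker C3ar1 (0.91). Mmp3 was most like the matricellular gene Postn (0.95), Sema4b (0.93) and the interferon-inducible Ifi204 (0.93). Timp1 was most like the non-muscle myosin heavy chain Myh9 (0.97), the tubulin Tuba1a (0.95) and Rgs10 (0.94), and Mmp14 like Nisch (0.92), the ribosomal gene Rplp0 (0.90) and the collagen Col1a1 (0.90). Mmp9, whose level was highest by far in the single mdx utrn-/- array, was most like G0s2 (0.95), Ltf (0.95) and Igfbp3 (0.95). For Mmp11 they were the globin pseudogene Hba-ps3 (0.93), Lamtor4 (0.93) and Scarb2 (0.92), and for Timp2 Ncoa4 (0.96), Fam107b (0.91) and Abcd2 (0.91). Timp3, which was highest in the bright arrays, was most like Ubp1 (0.98), Ivns1abp (0.98) and Pccb (0.97). These values were 0.90, 0.91 and 0.87 once the brightness means were removed. Each list holds the highest values over all such genes in 9 arrays, and no test was made.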

How the data were processed

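Frozen gastrocnemius gave the RNA, which was made into biotin-labelled cRNA for hybridisation, per the labels. What the authors deposited is 1 intensity per probe set and array, linear as judged from the values, of which 19.4% to 29.9% per array were not above 0. How the authors summarised and scaled them is not stated in the sources used here. Between the deposited arrays the median intensity ranged from 1.47 to 45.6.

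Intensities of the 12422 probe sets that are not controls were quantile normalised on the linear scale, set to 0 where negative, increased by 16 and put on the log2 scale. Probe sets with a mean above the 40th percentile (7453) were tested with the linear models and moderated statistics (lmFit, eBayes) of limma, version 3.58.1 under R 4.3.3, two-sided, with Benjamini-Hochberg adjustment over all of them and a threshold of 0.05. The comparison of classes used all 9 arrays in 2 groups, the 2 comparisons of single genotypes used all 9 arrays with 1 mean per genotype, and that of the human gene used 6 arrays. The fit was tested on simulated data with known differences and normal noise of a common spread. The simulation had no floor and no brightness split, so it does not check the tests of dim genes. Gene names came from the platform annotation, updated through gene identifiers, and 10833 probe sets had 1 name, 396 several and 1193 none. Promoter windows came from RefSeq.

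Every probe set of the 9 genes is described, and a gene is counted by its brightest one. From each list, members past the test and up to 3 with the largest class difference are named, and for likeness the 3 genes with the highest Pearson correlation. The members and lists were chosen with earlier results of these data known. The number of arrays limits the precision, and pairs of mice of 1 genotype had correlations of 0.816 (wild-type), 0.861 (mdx) and 0.841 (hDMD mdx) across probe sets. Alternatives were no normalisation, scaling to the 75th percentile, no filter, pseudocounts of 1 and 64, array brightness as a block, dim arrays only, a term for age or for the human gene, other arrays in the fit, and each mouse left out in turn with normalised values kept.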

Additional observations from a re-analysis of the deposited data

Results flagged for a closer look

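Among the 6 arrays that carry dystrophin, wild-type 2 stood apart in 2 of the 9 member probe sets examined. It read 5.01 for Mmp12 on 95339_r_at, with the next array, hDMD, at 4.33, a gap that made up 0.677 of the range of the 6 arrays. It read 5.58 for Mmp3, with the next array, hDMD mdx 1, at 4.69, and the gap was 0.657 of the range. Chance alone sets 1 array apart in this way in about 5% of groups of freely varying values, a share that does not apply to Mmp12, because 3 of the 6 arrays lay at the floor. The same array had the second highest macrophage sum of all 9, 1965, and the highest adipocyte sum, 6165. Its fibroblast and matrix substrate sums, 5325 and 8781, were also the highest.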

How the results depend on the processing

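Of 36 member differences under 621 alternative values, 19 reversed and 602 did not, and 25 of the 36 never reversed. Among the 602, Mmp9 between hDMD mdx and mdx was 0 without hDMD mdx 2, and so had no direction. No member passed the threshold under any of these alternatives, with adjusted p in limma between 0.0772 and 1. Every difference of Mmp12, Mmp14 and Timp1 kept its direction, although that of Mmp14 between the classes was 0.28 in the fit with a human gene term. The size for Mmp12, whose signal is weak, depends on the pseudocount, from 0.70 at 64 to 3.81 at 1 in the comparison of classes.

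The 9 probe sets called between the classes became 0 with deposited values, 2 with no filter, 1 with a pseudocount of 1 and 2 with the human gene as a covariate, and 2 to 18 when 1 mouse was left out (18 without wild-type 1, 2 without hDMD, hDMD mdx 2 or mdx utrn-/-, 3 without mdx 1, and 5 without hDMD mdx 1 or hDMD mdx utrn-/-). For the human gene, the count of 0 became 4 with a brightness block and 1 with all 9 arrays, and it stayed at 0 without any 1 mouse, as it did in both comparisons of single genotypes.

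In the comparison of classes Mmp9 was -0.018 with deposited values, -0.40 with a pseudocount of 1 and -0.079 with the human gene as a covariate. With 1 mouse left out it ranged from -0.43 (without mdx utrn-/-) to 0.63, and Timp3 from -1.08 to 0.031. Between mdx and wild-type, Mmp3 was -0.14 on dim arrays, and with 1 mouse left out Mmp11 ranged from -0.056 to 1.64, Timp2 from -1.75 to 0.13 and Timp3 from -1.79 to 0.43. Between hDMD mdx and mdx, Timp2 then ranged from -0.21 to 0.69 and Timp3 from -0.57 to 1.64. For the human gene, Timp3 was -0.0042 with age as a covariate, and with 1 mouse left out Timp3 ranged from -0.44 to 0.82, Timp2 from -0.17 to 0.35 and Mmp9 from -0.76 to 0.26. The cause was not tested. Dim arrays alone left 1 mouse per group in the single genotype comparisons, so those are values without a test. No paired analysis was possible because replicate numbers follow deposit order and pair no mice. Dim signal limits Mmp2, the other probe sets of Mmp9, Timp1 and Timp2, and every value at the floor.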
